A study of Mus musculus with 30 samples.

Results

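The effect of lactate on MHC-IIhi tumour-associated macrophages was measured by RNA sequencing of 10 libraries, 5 from cells cultured for 24 h with 20 mM sodium L-lactate and 5 from cells cultured for 24 h without it, out of 30 libraries in the series. The members were taken as the count columns whose headers carry the MHC-IIhi label together with the lactate or the no-lactate prefix. The cells came from subcutaneous tumours of 3LL-R, a Lewis lung carcinoma line, grown in wild-type C57BL/6 mice, were sorted by flow cytometry, and went into culture at 250000 cells each. The other 20 libraries were MHC-IIlo macrophages cultured in the same 2 ways and both subsets lysed straight after sorting, with 5 libraries in each group. Age, sex and pooling of mice are not given in the sources used here. The labels name separate biological replicates but do not say which cultures came from the same mice. Lactate was added as its sodium salt and a control with another sodium salt is not described, so lactate and the added sodium cannot be told apart.

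Lactate is the end product of glycolysis that tumour cells release in large amounts. Cells carry it across the membrane with monocarboxylate transporters of the SLC16 family, and lactate dehydrogenase interconverts it with pyruvate. In tumour macrophages lactate is best known for raising Arg1 and Vegfa, and it can also act through surface receptors, through acidity and as a donor for histone lactylation. MHC-IIhi macrophages are the subset with high surface MHC class II, the molecule that presents antigen to CD4 T cells.

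Total counts were 22030754 to 29152519 per library without lactate and 16965012 to 30135127 with lactate. Levels are given as CPM, counts scaled to library size, after TMM scaling, and libraries are named by the number in their column header, 3 to 7 without lactate and 1, 3, 4, 5 and 6 with lactate. Values for a group are listed in that order, and summed levels of marker lists are CPM of the library total without TMM. All 14 macrophage markers had counts, with a summed level of 7879 to 14985 CPM without lactate and 8893 to 18844 CPM with it. The sorting molecule's chain H2-Ab1 stood at 1137 ± 303 CPM without lactate in MHC-IIhi cultures against 29.9 ± 24.2 CPM in MHC-IIlo cultures (mean ± SD, n = 5). On principal component analysis of the 10 libraries, the first and second components (26.3% and 19.6% of variance) did not part the conditions, and the third (14.5%) did, with all 5 no-lactate libraries on one side and all 5 lactate libraries on the other. Reads from mitochondrial genes made up 0.444% to 0.562% of counts without lactate and 0.586% to 0.797% with it, without overlap (exact permutation test, 2-sided, p = 0.00794, the smallest that 5 against 5 allows, and 0.0317 after adjustment over 4 library measures). Total count, the ribosomal protein share and the number of genes with a count had p of 0.198, 0.357 and 0.111 in the same test. The part of the mitochondrial share in the results below was not tested.

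The question of the comparison is which genes respond to lactate in this subset. Of 13593 genes tested, 34 passed an adjusted p of 0.05 (0.25% of genes tested), 28 higher with lactate (0.206%) and 6 lower (0.0441%). Genes that rose encode the betaine and GABA carrier Slc6a12, the secreted matrix protein Olfml2b, the sphingolipid enzymes Smpdl3b and Sgms2, the collagen receptor chain Itga1, fibronectin (Fn1) and the collagenase Mmp8. Genes that fell include the cytokine Il22, the carrier Slc16a6 and the VEGF receptor Flt1. The median log2 fold change was 0.82 among the genes that rose and -1.098 among those that fell, against -0.0055 over all genes tested. Of the 34, 31 had groups that did not overlap, which held for 2.04% of all genes tested. The 34 were picked on these same values, so this describes them and is no separate support for the calls. At an unadjusted p under 0.05 there were 1342 genes (9.87%), 843 higher and 499 lower. Throughout, a value given as ± SE beside a gene is its fitted log2 fold change, lactate minus no lactate, and adjusted p are from edgeR's quasi-likelihood test unless another tool is named.

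The calls differed in how firmly they held. With 1 library left out at a time, the number of genes that passed was 19, 13, 10, 8 and 27 without no-lactate libraries 3, 4, 5, 6 and 7, and 12, 8, 21, 22 and 9 without lactate libraries 1, 3, 4, 5 and 6, in place of 34. Olfml2b, Smpdl3b, Sgms2, Slc16a6 and Slc6a12 passed in each of those 10 fits and under all 11 other settings tried. Itga1 and Il22 also passed in each of the 10 fits. When only the 10 MHC-IIhi libraries were fitted, 16 genes passed, 12 of them among the 34. Apart from these 7, each of the other 27 genes lost its call in at least 1 of the 10 fits that left out a library. Of the 27, Tuba4a kept its call in 9 of these fits, Tmem38b and Kdm5b in 6 each, and the rest in 4 or fewer. Npepps, Slpi, Mmp8 and Pgm2l1 were among those that kept it in none. No gene of the 34 changed direction in any setting. In data simulated with these library sizes and spreads, 100% of 50 genes raised 4-fold in the lactate MHC-IIhi group and 78% of 50 genes raised 2-fold were recovered among 13590 genes. The raised genes were taken from those above 1 CPM on average. Counts were drawn for each gene on its own, so shifts of a library shared by many genes were not simulated.

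**Figure D1:**
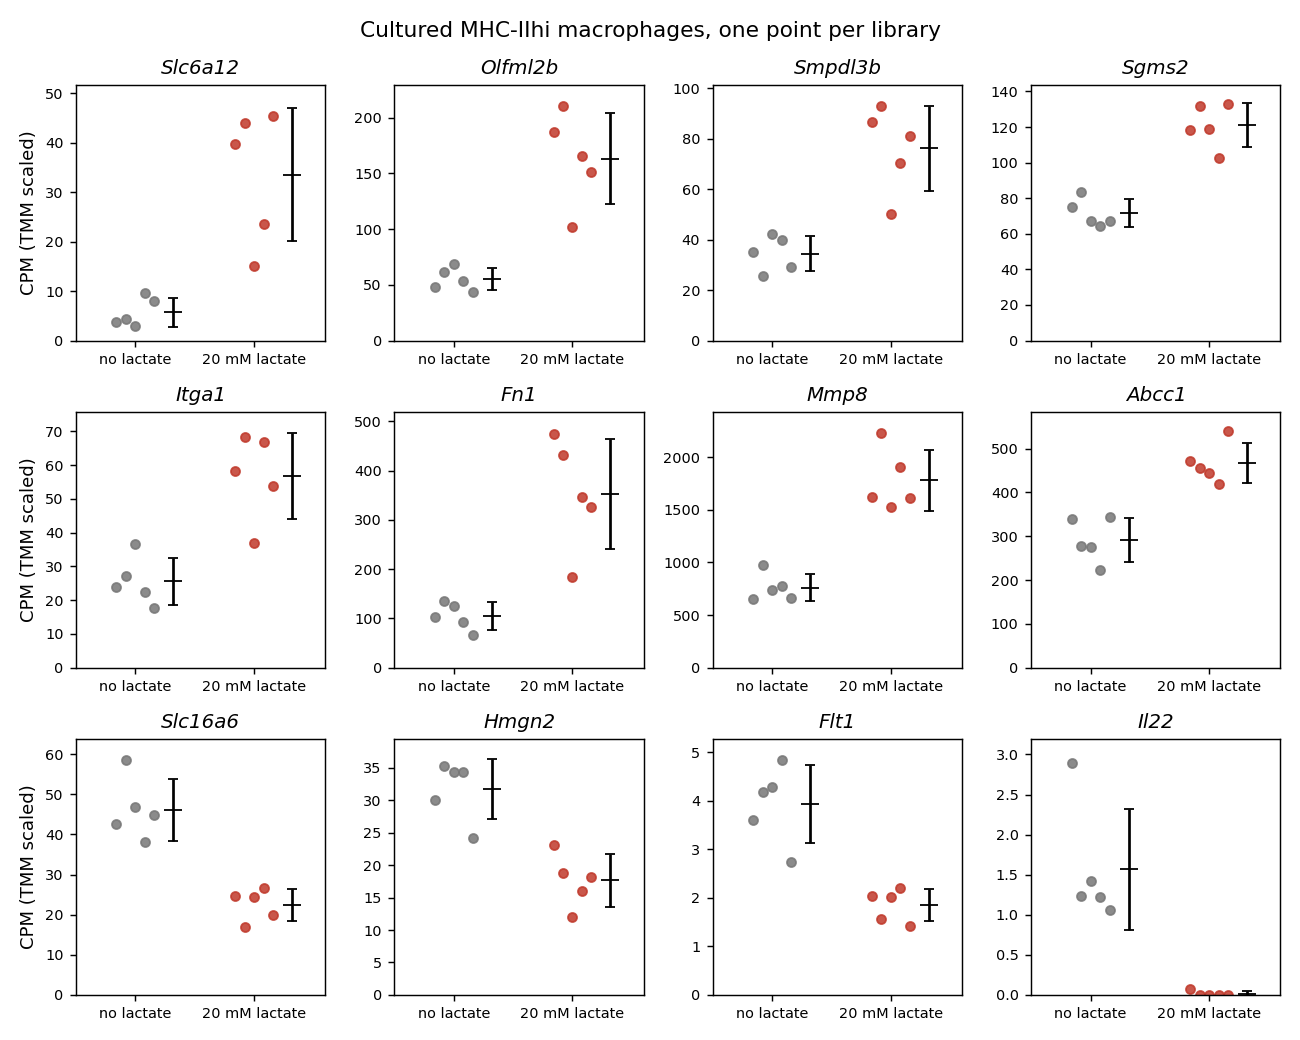
CPM in each cultured MHC-IIhi library for 12 genes that passed, with 5 points without lactate (grey), 5 points with 20 mM lactate (red) and the mean ± SD beside them, on linear axes from 0. In every panel the lowest point of one condition lies above the highest of the other, by the narrowest margin in Itga1, where the highest no-lactate library was at 36.6 and the lowest lactate library at 36.8 CPM.

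The promoters of 2 of the genes that rose and held their call in every setting are shown to give the sequence context of the change, read from RefSeq on build GRCm38.p6 as the 250 bases before a transcription start. Capitals mark matches on either strand to the short site of the cAMP response element TGACG, the AP-1 site TGANTCA or the GC box GGGCGG. The windows are chr6:121342324-121342573 on the plus strand for Slc6a12 (the first of 5 starts) and chr1:170644282-170644531 on the plus strand for Olfml2b.
Slc6a12: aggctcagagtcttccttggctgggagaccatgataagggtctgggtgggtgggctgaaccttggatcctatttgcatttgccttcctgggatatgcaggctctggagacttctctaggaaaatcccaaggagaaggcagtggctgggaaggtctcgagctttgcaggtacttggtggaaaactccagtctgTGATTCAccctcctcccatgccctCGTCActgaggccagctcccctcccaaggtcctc
Olfml2b: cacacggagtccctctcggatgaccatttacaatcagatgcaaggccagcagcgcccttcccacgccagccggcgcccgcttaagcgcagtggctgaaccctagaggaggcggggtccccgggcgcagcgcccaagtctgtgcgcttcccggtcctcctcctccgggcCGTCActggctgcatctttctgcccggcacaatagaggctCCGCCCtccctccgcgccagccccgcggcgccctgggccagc
The window shown for Slc6a12 holds 1 AP-1 match and 1 short site, and that of Olfml2b 1 short site and 1 GC box. The windows of starts 2 to 5 of Slc6a12 held no match to any site searched. Start 3 is the one whose window ends just before the deposited gene start. Smpdl3b, which also rose and held its call in every setting, had 1 window, with no match. Of the 34 genes, 23 had 35 promoter windows in the RefSeq table. The E-box CACGTG was in 4 of these 35 windows (6.02% of all 32851 windows of that length), the full cAMP response element TGACGTCA in 1 (1.55%), its shorter form TGACG, which lies within the full site, in 6 (17.8%), the GC box in 15 (32.7%) and the AP-1 site in 3 (6.75%). The E-box was in windows of Hmgn2, Pgm2l1, Sgms2 and Slpi. These matches are a description of the letters in each window.

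Carriers of osmolytes and ions come first among the genes that rose. Slc6a12 (ENSMUSG00000030109, chromosome 6, 121343076 to 121365775) imports betaine and GABA and is a classical target of NFAT5, the transcription factor of the response to high salt. It was at 3.67, 4.37, 2.99, 9.52 and 7.89 CPM without lactate and 39.6, 43.999, 15.1, 23.6 and 45.4 CPM with lactate. The groups did not overlap, and the lowest values with lactate were in libraries 4 and 5. The difference was log2 fold change 2.56 ± 0.38, adjusted p = 0.00335, the largest rise among the genes that passed. Straight after sorting it was at 0.254 ± 0.193 CPM in MHC-IIhi cells on a scale set over all 30 libraries. Of 15 tested osmolyte carriers and NFAT5 targets, Slc6a12 was the 1 that rose and none fell. For 11 of the 15 the fitted change was above 0, against 6650 of 13593 over all genes, and their median was 0.26. The myo-inositol carrier Slc5a3 (0.42 ± 0.25), the taurine carrier Slc6a6 (0.26 ± 0.18), the chaperone Hspa4l (0.61 ± 0.19) and Nfat5 itself (0.34 ± 0.17) did not pass.

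Averaged over the osmolyte list, each library's deviation from the gene means ran from -0.35 to 0.05 log2 units without lactate and from 0.13 to 0.23 with it, so the 2 sets of libraries did not overlap. With Slc6a12 taken out, a step chosen after its values were seen, no-lactate libraries ran from -0.26 to 0.11 and lactate libraries from 0.02 to 0.12, and they overlapped through no-lactate library 7.

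Other membrane carriers also rose. Fxyd2, a regulatory subunit of the sodium-potassium pump, went from 2.54, 1.71, 1.89, 2.04 and 0.995 CPM to 11.5, 12.9, 3.95, 6.43 and 7.22 CPM (log2 fold change 2.20 ± 0.42, adjusted p = 0.0253). Slc39a4, a zinc importer, went from 1.799, 2.19, 1.97, 2.85 and 2.402 CPM to 6.801, 6.98, 3.57, 6.32 and 5.64 CPM (log2 fold change 1.39 ± 0.25, adjusted p = 0.0212). The groups of both genes were apart, with lactate library 4 the lowest of the lactate libraries in each. Tmem38b, a potassium channel of the endoplasmic reticulum that accompanies calcium release, rose by 0.83 ± 0.14. Fxyd2 passed in 3 and Slc39a4 in 4 of the 10 fits that left out a library.

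Efflux pumps of the ABC family were also among the genes that rose. Abcc1, which exports glutathione conjugates and leukotrienes, was at 340.3, 279, 276, 223 and 343 CPM without lactate and 473, 456, 443, 418 and 539.6 CPM with it (log2 fold change 0.67 ± 0.13, adjusted p = 0.0324). Abcb4, a phospholipid translocase, was far lower at 1.52, 1.62, 0.983, 0.7703 and 1.78 CPM and 3.47, 3.697, 2.51, 2.802 and 5.37 CPM (log2 fold change 1.41 ± 0.28, adjusted p = 0.0324). Each had groups that did not overlap, and each kept its call in 3 of the 10 fits that left out a library. Abcc1 is also a target of NRF2, the regulator of antioxidant genes. It was the 1 gene to pass of 19 tested NRF2 targets, 13 of which had a fitted change above 0 (median 0.17), and Gsr, glutathione reductase, did not pass (0.43 ± 0.11).

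Enzymes of sphingolipid metabolism gave 2 of the firmest calls. Smpdl3b (ENSMUSG00000028885, chromosome 4, 132732966 to 132757252), a membrane-anchored phosphodiesterase related to acid sphingomyelinase, was at 35.2, 25.6, 42.4, 39.8 and 29.1 CPM without lactate and 86.6, 93.1, 50.02, 70.3 and 81.2 CPM with it. The groups did not overlap, and lactate library 4 was again the lowest with lactate. The difference was log2 fold change 1.15 ± 0.16, adjusted p = 0.00271. Sgms2 (ENSMUSG00000050931, chromosome 3, 131318985 to 131491411), the sphingomyelin synthase of the plasma membrane, was at 75.3, 83.7, 67.4, 64.5 and 66.9 CPM and 118, 132, 119, 103 and 133 CPM (log2 fold change 0.76 ± 0.11, adjusted p = 0.00271), also with no overlap. The other 31 of 33 tested sphingolipid enzymes did not pass, with Galc, Sptlc1 and Smpd1 among them, and the median of the 33 was 0.07. The fitted changes of those 31 ranged from -0.37 to 0.47.

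Genes of the extracellular matrix and adhesion rose in 4 cases. Olfml2b (ENSMUSG00000038463, chromosome 1, 170644532 to 170682789), a secreted olfactomedin-domain protein that binds matrix proteoglycans, was at 48.1, 61.2, 68.3, 53.7 and 43.7 CPM without lactate and 187, 210.2, 102, 166 and 151 CPM with it. Every lactate library was above every no-lactate library, and the difference was log2 fold change 1.57 ± 0.18, adjusted p = 0.000337, the smallest p in the comparison. Its mean in cells lysed straight after sorting was 9.27 ± 2.17 CPM.

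Fn1 (ENSMUSG00000026193, chromosome 1, 71585520 to 71653200), which encodes fibronectin, was at 103, 136, 126, 92.1 and 66.6 CPM without lactate and 474, 431, 184, 346 and 326 CPM with it, without overlap (log2 fold change 1.75 ± 0.33, adjusted p = 0.0253). Both levels were far below the 17797 ± 2951 CPM of freshly sorted MHC-IIhi cells. Its call held in 2 of the 10 fits that left out a library, with a highest adjusted p of 0.0935 and log2 fold changes of 1.61 to 1.91. Itga1 (ENSMUSG00000042284, chromosome 13, 114958079 to 115101964), the alpha chain of a collagen-binding integrin, was at 24.1, 27.03, 36.6, 22.5 and 17.7 CPM and 58.2, 68.3, 36.8, 66.97 and 53.7 CPM (log2 fold change 1.15 ± 0.18, adjusted p = 0.00427). The groups were apart only by a narrow margin between no-lactate library 5 and lactate library 4, and Pelo lies within Itga1 on the same strand, so reads of the pair may be mixed. With only the 10 MHC-IIhi libraries in the fit its adjusted p was 0.063.

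Mmp8, a collagenase known from neutrophils, was the most abundant gene to rise, at 653, 973, 739, 776 and 658 CPM without lactate and 1618, 2233, 1529, 1905 and 1612 CPM with it (log2 fold change 1.23 ± 0.26, adjusted p = 0.0472). The groups did not overlap, but the adjusted p was above the threshold in each of the 10 fits that left out a library (highest 0.156). Log2 fold changes in these fits were 1.12 to 1.32. The adjusted p was also above the threshold with RLE scaling (0.053) and with a replicate block on the header numbers (0.078). Mmp8 was the 1 gene past the threshold of 3 tested neutrophil markers. The summed level of the 10 neutrophil markers was 698 to 991 CPM without lactate and 1503 to 2288 CPM with it, and without Mmp8, a step chosen after its values were seen, it was 43.5 to 91.7 CPM and 40.7 to 61.5 CPM, while S100a9, Ly6g, Cxcr2, Retnlg, Camp, Ngp and Elane each averaged under 0.1 CPM and Ngp had no count. Of 29 tested genes for matrix and matrix regulators, Fn1, Olfml2b and Mmp8 rose, none fell, 15 had a fitted change above 0 and the median was 0.07. Of 9 monocyte markers Fn1 rose and no other passed. Their median was 0.07, 6 had a fitted change above 0, and fitted changes ranged from -1.10 to 1.75. At an unadjusted p under 0.05, 3 of the 9 were higher and 1 was lower. Without Fn1, also left out after its values were seen, the other 8 summed to 330.4 to 727 CPM without lactate and 512 to 802 CPM with it, which overlapped, and their part in the rise of Fn1 was not tested. F13a1 was at 19.5, 28.98, 24.3, 18.4 and 29.9 CPM and 18.7, 56.1, 64.6, 58.1 and 68.7 CPM (1.14 ± 0.33) and did not pass, with lactate library 1 far below the other 4.

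Slpi, a secreted inhibitor of neutrophil serine proteases, was at 442, 398, 406, 375 and 357 CPM without lactate and 728, 784, 679.6, 592 and 537 CPM with it (log2 fold change 0.75 ± 0.15, adjusted p = 0.0392), without overlap. Nlrc4, the sensor of an inflammasome, rose by 0.64 ± 0.14. Stfa3, a stefin-type cysteine protease inhibitor, rose from 0.741, 0.57003, 0.629, 0.634 and 1.03 CPM to 3.66, 3.97, 2.29, 2.47 and 1.16 CPM (log2 fold change 1.90 ± 0.35, adjusted p = 0.024), but it belongs to a family of near-identical copies and its reads may be split among them. Npepps, a cytosolic aminopeptidase, had the smallest fitted change of the 34 at log2 fold change 0.39 ± 0.078, adjusted p = 0.0324, from 166, 172, 149, 150.0 and 170.3 CPM to 195, 220.3, 209.9, 202 and 231 CPM. Each of these 4 genes lost its call in at least 6 of the 10 fits that left out a library, and Slpi and Nlrc4 did not pass in limma on FPKM values.

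The remaining genes that rose serve varied functions. Sort1, the sorting receptor of the secretory pathway, rose by 1.12 ± 0.23. Ptpn7, a phosphatase of MAP kinases, rose by 0.80 ± 0.16. Kdm5b, a demethylase of histone H3 lysine residues at promoters, rose by 0.69 ± 0.12, and its groups overlapped, since lactate library 1 was at 31.8 CPM and no-lactate library 7 at 32.3 CPM. Acpp, a phosphatase that also dephosphorylates AMP, rose by 0.73 ± 0.14, with groups that overlapped through no-lactate library 7. The others were Tuba4a (0.56 ± 0.096), an alpha-tubulin, Gpaa1 (0.54 ± 0.11), a subunit of the complex that attaches GPI anchors, Fut11 (0.58 ± 0.12), a fucosyltransferase, Pgm2l1 (0.59 ± 0.12), an enzyme of sugar bisphosphate synthesis, Helb (0.42 ± 0.081), a DNA helicase, and Mfap3l (1.23 ± 0.22) and Nicn1 (0.92 ± 0.17), whose roles in macrophages are less known. Of these, Tuba4a kept its call in 9 of the 10 fits that left out a library, losing it without no-lactate library 6. Kdm5b kept it in 6, Mfap3l and Nicn1 in 4 each, Acpp in 3 and Fut11 in 2. Sort1, Ptpn7, Gpaa1 and Helb kept it in 1 each and Pgm2l1 in none. Pgm2l1 also did not pass in limma on FPKM values.

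Il22 had the largest fitted fall. This cytokine, made mainly by T helper and innate lymphoid cells, acts on epithelia. Its raw counts were 82, 26, 36, 27 and 31 in the no-lactate MHC-IIhi libraries and 2, 0, 0, 0 and 0 in the lactate libraries (ENSMUSG00000074695, chromosome 10, 118204942 to 118210047). No count was found in any library of the other 4 groups, fresh MHC-IIhi cells included. Over the groups the counts were 202 and 2, a ratio of 85.8 after scaling to library totals, with an exact 95% interval of 23.4 to 713 that covers counting error only. The adjusted p was 0.00335 in edgeR. Its fitted log2 fold change depends on the prior count and is not a measure of size.

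Markers of lymphocytes were present at low levels. The 11 markers of T and NK cells summed to 7.498 to 20.6 CPM without lactate and 5.05 to 10.98 CPM with it, with Ncr1 and Klrb1c under 0.1 CPM and none at 0 in all 10 libraries. Gzmb, the granule protease of cytotoxic cells, was at 10.2, 11.4, 11.9, 7.39 and 4.12 CPM and 5.81, 2.82, 5.71, 4.395 and 2.37 CPM (-1.09 ± 0.43) and did not pass, and the 4 markers tested each had a fitted change below 0. The counts summed over 5 libraries were 57 without lactate and 10 with it for Il17a, 41 and 7 for Il17f and 299 and 137 for Il23r. Among chains of the T cell receptor complex they were 123 and 66 for Trac, 48 and 19 for Cd3g, 53 and 30 for Cd3d and 34 and 39 for Cd3e. For other T and NK cell markers they were 30 and 6 for Cd8a, 164 and 109 for Cd4 and 161 and 131 for Cd2. They were 32 and 10 for Nkg7, 3 and 0 for Ncr1 and 0 and 6 for Klrb1c. Scaled to library totals, the ratio of no lactate to lactate had an exact 95% interval above 1 for Trac (1.16 to 2.17), Cd3g (1.24 to 3.87) and Cd8a (1.74 to 12.5). The same held for Nkg7 (1.30 to 6.20) and Gzmb (1.88 to 2.34). The interval included 1 for Cd3e, Cd3d, Cd2, Cd4 and Ncr1. It lay below 1 for Klrb1c (0 to 0.721), which went the other way. These intervals cover counting error only. Il17a, Il17f and Il23r were looked up after the values of Il22 were seen. In bulk RNA, fewer cells of a type and less RNA per cell cannot be told apart, and the part of lymphocytes in the fall of Il22 was not tested.

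Slc16a6 (ENSMUSG00000041920, chromosome 11, 109450855 to 109473598) was the most firmly lowered gene of macrophage abundance. It encodes a member of the monocarboxylate transporter family that carries ketone bodies and taurine. It was at 42.6, 58.6, 46.7, 38.1 and 44.7 CPM without lactate and 24.7, 16.9, 24.3, 26.6 and 19.9 CPM with it, with no overlap and a difference of log2 fold change -1.04 ± 0.15, adjusted p = 0.00335. Arsg and Amz2 overlap it on the opposite strand and the small gene Gm25540 on its own, and the strand setting of the counting is not stated. Of the 4 tested carriers among the less studied SLC16 members, it was the 1 that changed, and Slc16a13 (0.42 ± 0.38) did not pass.

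The other genes that fell were 4. Flt1, the VEGF receptor 1, was at 3.598, 4.18, 4.29, 4.85 and 2.74 CPM and 2.05, 1.57, 2.03, 2.198 and 1.42 CPM (log2 fold change -1.08 ± 0.22, adjusted p = 0.0392), and was the 1 gene past the threshold of 22 growth factors and vessel signals, whose median was -0.07. Its call held in 1 of the 10 fits that left out a library and not when the fresh libraries were fitted too (adjusted p = 0.162, 30 libraries). The 8 endothelial markers summed to 348 to 626 CPM without lactate and 305 to 429 CPM with it. Of these, Kdr (-0.25 ± 0.26), Vwf, Pecam1 and Cdh5 were tested and did not pass, while Tek, Tie1 and Cldn5 averaged under 0.1 CPM and Emcn had no count. Their part in the fall of Flt1 was not tested. Hmgn2, a nucleosome-binding protein, was at 30.1, 35.3, 34.4, 34.4 and 24.3 CPM and 23.1, 18.8, 12.1, 16.04 and 18.2 CPM (log2 fold change -0.84 ± 0.15, adjusted p = 0.0212). Tppp3, a tubulin-binding protein, was at 17.3, 17.9, 17.8, 29.5 and 19.04 CPM and 9.7996, 9.89, 8.75, 10.2 and 8.12 CPM (log2 fold change -1.12 ± 0.22, adjusted p = 0.0324). The groups of these 3 genes did not overlap. The predicted gene Gm1840 was at 11.99, 9.36, 9.21, 8.52 and 2.299 CPM and 1.72, 2.36, 2.83, 1.98 and 2.42 CPM (log2 fold change -1.87 ± 0.37, adjusted p = 0.0323), with groups that overlapped through no-lactate library 7. In the 10 fits that left out a library, Hmgn2 kept its call in 4, Tppp3 in 2 and Gm1840 in 1. Tppp3 and Gm1840 did not pass in limma voom. Hmgn2 and Gm1840 did not pass with only the 10 MHC-IIhi libraries fitted.

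Genes that handle lactate itself did not pass. Of 23 tested genes for lactate and pyruvate handling, 11 had a fitted change above 0, 0 passed and the median was -0.01. Ldha, which favours the formation of lactate, had 0.24 ± 0.16 (95% interval -0.089 to 0.56). Slc16a1 (-0.12 ± 0.19) and Slc16a3 (0.25 ± 0.18), the carriers that import and export lactate, also overlapped between the groups. Emb, a chaperone of these carriers, was at 343, 368, 321, 368 and 259.7 CPM without lactate and 507, 542, 408, 447 and 464 CPM with it (0.51 ± 0.15, adjusted p = 0.207), without overlap. Of 15 tested genes for lactate or proton receptors and cAMP targets, 0 passed, 7 were above 0 and Gpr132 had -0.20 ± 0.21. Ldhb was near the limit of detection at 0.529, 1.09, 1.69, 1.99 and 0.206 CPM and 2.78, 2.54, 0.213, 0.769 and 1.16 CPM.

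The genes best known as lactate targets in tumour macrophages were not past the threshold here. Arg1, the arginase of alternatively activated cells, was at 1745, 2092, 1825, 1196 and 1051 CPM without lactate and 1445, 2559, 1796, 2480.3 and 1787 CPM with it (0.35 ± 0.29, 95% interval -0.25 to 0.95, adjusted p = 0.746). Vegfa, the vascular growth factor, was at 160.4, 179, 117, 96.4 and 178 CPM and 102, 154, 197, 208 and 312 CPM (0.41 ± 0.25, 95% interval -0.11 to 0.94, adjusted p = 0.624). In both the groups overlapped, and the intervals include both 0 and a rise of nearly 1 log2 unit. Nos2, the inducible nitric oxide synthase, had 0.64 ± 0.33, and Mrc1, the mannose receptor, had -0.26 ± 0.23, each with overlap.

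The lists for hypoxia and central carbon metabolism held no call. All 25 tested genes of the hypoxia response had a fitted change above 0 (median 0.31, range 0.07 to 0.76) and 0 passed. Averaged over these genes, the no-lactate libraries stood at -0.03, 0.04, -0.49, -0.57 and 0.32 log2 units around the gene means and the lactate libraries at -0.66, 0.07, 0.41, 0.18 and 0.73. The groups overlapped widely, since lactate library 1 was the lowest of all 10. Ankrd37, a HIF target, was at 22.2, 24.7, 10.2, 12.8 and 26.1 CPM and 16.5, 26.4, 40.9, 30.5 and 48.6 CPM (0.76 ± 0.28).

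Glycolysis genes were above 0 in 19 of 23 tested (median 0.21) with 0 past the threshold, and the libraries overlapped, from -0.41 to 0.22 without lactate and from -0.02 to 0.23 with it. Hk1, the hexokinase bound to mitochondria, had 0.47 ± 0.13 and Aldoc, an aldolase, 0.80 ± 0.28. The 7 tested mitochondrial genes of oxidative phosphorylation were all above 0 (median 0.39), beside the higher mitochondrial share of counts, and their nuclear partners were above 0 in 19 of 54 (median -0.02). mt-Nd1, a subunit of complex I, was at 862, 823, 906, 731 and 749 CPM and 1238, 1034, 1277, 1332 and 1030.0 CPM, without overlap (0.54 ± 0.20, adjusted p = 0.348). The TCA cycle was above 0 in 7 of 24 (median -0.06).

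**Figure D2:**
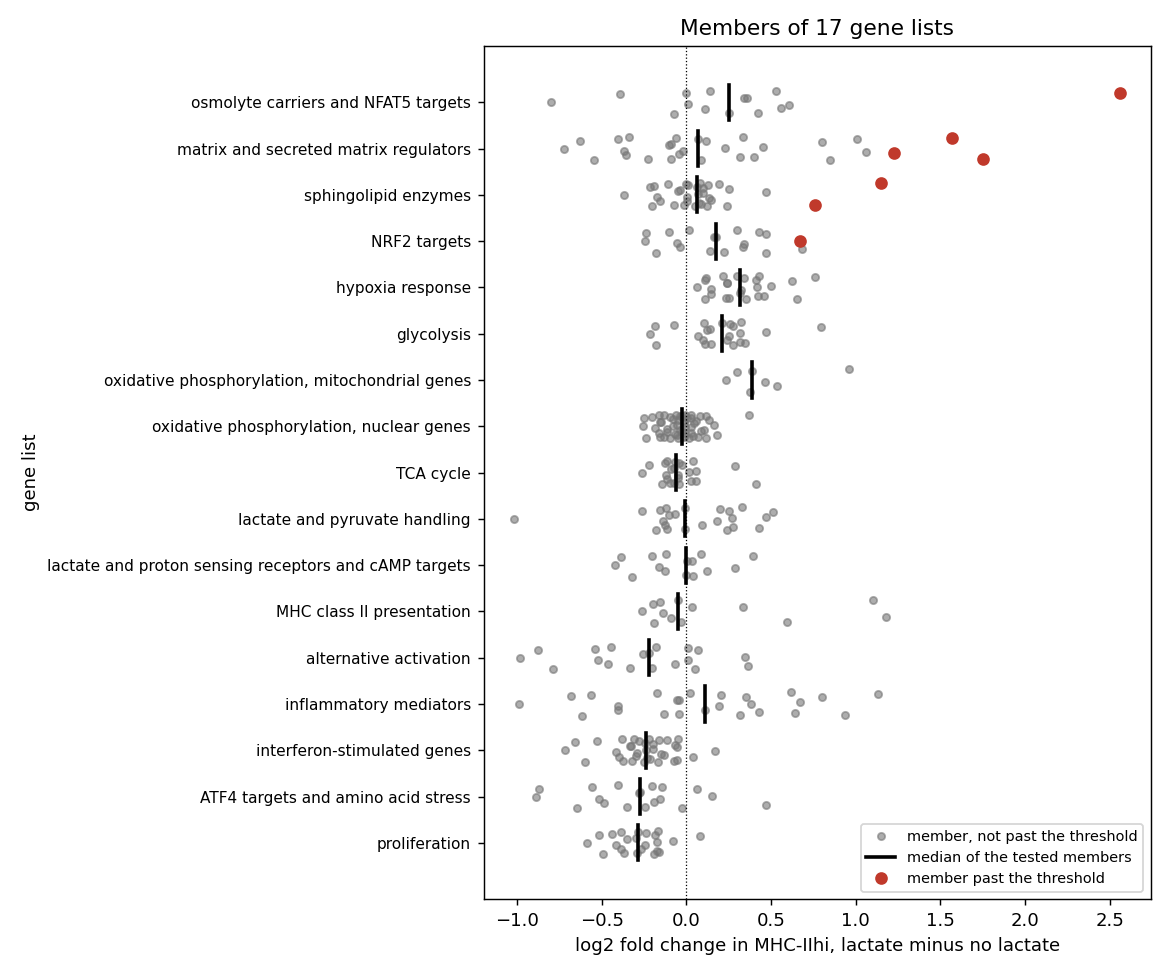
Fitted log2 fold change in MHC-IIhi cells (lactate minus no lactate) for each tested member of the main gene lists, with members past the threshold in red, other members in grey and a black bar at the median. Hypoxia genes lie to the right of 0 (25 of 25) with a median of 0.31, while red points are found in the osmolyte, matrix, sphingolipid and NRF2 lists only among those plotted.

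Immune lists also held no call under edgeR. MHC class II presentation was above 0 in 5 of 13 tested genes (median -0.05). H2-Ab1 was at 1326, 1136, 918, 1530.2 and 777 CPM without lactate and 1325, 919, 1079, 813 and 963 CPM with it (-0.16 ± 0.36, 95% interval -0.90 to 0.59), and the invariant chain Cd74 had -0.26 ± 0.36. H2-Oa and H2-Ob, the chains of the peptide-loading modulator H2-O, were at low levels. H2-Oa was at 0.247, 0.665, 0.944, 0.861 and 0.755 CPM without lactate and 1.35, 1.34, 1.39, 1.099 and 2.27 CPM with it (1.099 ± 0.43, adjusted p = 0.383). H2-Ob was at 0.353, 0.238, 0.551, 0.453 and 0.377 CPM without lactate and 0.804, 0.786, 0.693, 0.769 and 1.48 CPM with it (1.18 ± 0.42, adjusted p = 0.335). In both genes every lactate library was above every no-lactate library, though neither passed. Both passed in limma on unfiltered log2(FPKM + 1) values, with adjusted p = 0.027 each.

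Interferon-stimulated genes were above 0 in 2 of 35 (median -0.24). Library averages ran from -0.51 to 0.58 without lactate and from -0.60 to 0.37 with it, so the groups overlapped. Gbp5, an interferon-induced GTPase, had -0.66 ± 0.26, and Isg20, an exonuclease against viral RNA, -0.60 ± 0.30. Alternative activation genes were above 0 in 6 of 19 (median -0.22), and here the library averages did not overlap, from 0.0060 to 0.32 without lactate and from -0.22 to -0.07 with it. Of 44 lists, this and the osmolyte list were the 2 whose library averages did not overlap, 1 lower and 1 higher. How many lists would do so by chance was not computed. Of the 19 alternative activation genes, 0 had groups apart and 2 were lower at an unadjusted p under 0.05. In MHC-IIlo their median was 0.11, with 10 above 0. The averages of the osmolyte list overlapped once Slc6a12 was taken out, and no member was taken out of the alternative activation list. Inflammatory mediators were above 0 in 14 of 25 (median 0.11). Among them Cxcl3, a neutrophil chemokine, was at 947, 819, 668, 622 and 1118 CPM and 1131, 1517, 1511, 1625 and 2212 CPM, without overlap (0.94 ± 0.29, adjusted p = 0.259), and Il12b, the IL-12 p40 chain, had 1.13 ± 0.33. Checkpoint ligands and suppressive factors had 0 calls of 18, with Cd274, which encodes PD-L1, at -0.32 ± 0.19. At an unadjusted p under 0.05, 3 of the 18 were higher and 4 lower, where 9.87% of all genes tested met this limit. The fitted changes of the 18 ranged from -1.82 to 0.77, and 1 had groups apart, lower with lactate. Proliferation genes were above 0 in 1 of 23 (median -0.28), with overlap between libraries. ATF4 targets were above 0 in 3 of 19 (median -0.27).

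**Figure D3:**
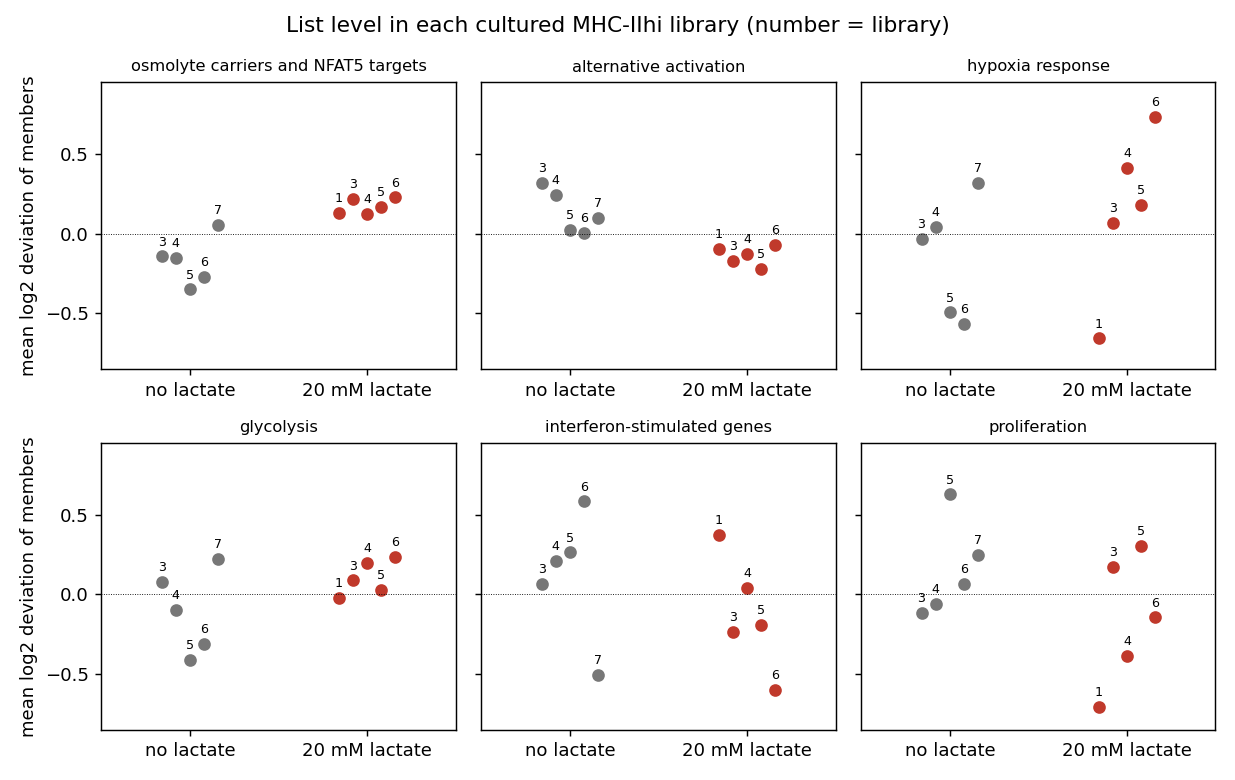
Mean log2 deviation of the tested members of 6 gene lists from their mean over 10 libraries, in each cultured MHC-IIhi library (points labelled by library number, grey without and red with lactate). The osmolyte and alternative activation lists separate the conditions, and the hypoxia, glycolysis, interferon and proliferation lists do not, with lactate library 1 at -0.66 for hypoxia genes. Once Slc6a12 was taken out, the osmolyte averages overlapped between the conditions (not drawn).

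Among abundant genes short of the threshold, those with an unadjusted p under 0.01 and groups apart were led by the adaptor protein Stac2 (1.099 ± 0.25), the chemokine Cxcl3, the endotoxin co-receptor Cd14 (0.90 ± 0.24), the matrix metalloproteinase Mmp27 (0.84 ± 0.27), the phospholipid flippase Atp8b4 (0.80 ± 0.19) and the lipid transporter Abca7 (0.78 ± 0.17) on the higher side. Cd14 was at 509, 309.6, 339, 219.6 and 441 CPM without lactate and 738, 756, 509.9, 546 and 854 CPM with it. On the lower side were Plek (-0.55 ± 0.13), a substrate of protein kinase C, the Polycomb protein Bmi1 (-0.39 ± 0.11), Urm1 (-0.31 ± 0.092), a ubiquitin-like modifier of tRNA, Rnf187 (-0.32 ± 0.11), Pdzd11 (-0.29 ± 0.098) and Ei24 (-0.27 ± 0.094). Their adjusted p ran from 0.063 (Abca7) to 0.317 (Pdzd11).

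The same comparison in MHC-IIlo cultures, with its own 5 and 5 libraries, gave 202 genes (1.49% of those tested), 123 higher and 79 lower. Of the 34 genes of MHC-IIhi cells, 12 also passed in MHC-IIlo in the same direction. The fitted change in MHC-IIlo was above 0 for 26 of the 28 genes that rose and below 0 for 4 of the 6 that fell. Slc6a12 changed by 3.19 ± 0.43 there, Olfml2b by 1.45 ± 0.18, Itga1 by 0.97 ± 0.18, Smpdl3b by 0.78 ± 0.16, Sgms2 by 0.50 ± 0.11 and Slc16a6 by -0.69 ± 0.15, all past the threshold. Read the other way, 112 of the 123 genes higher in MHC-IIlo were above 0 in MHC-IIhi and 72 of the 79 lower were below 0, with medians of 0.36 and -0.30 in MHC-IIhi against 0.86 and -1.03 in MHC-IIlo. Across all 13593 genes the fitted changes in the 2 subsets had Pearson's r of 0.31 and Spearman's rho of 0.26, a description over genes, which are not independent replicates and share one fit.

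The difference of the lactate effects between the subsets was tested directly. Under edgeR 0 genes passed (0%), with 1018 at an unadjusted p under 0.05 (7.49%), while DESeq2 gave 3 and limma voom 2. Predicted genes aside, the smallest p belonged to Bcl2a1a, a survival protein of the Bcl2 family, Socs2, a feedback inhibitor of cytokine signals, and Pgm2l1. Bcl2a1a had -0.29 ± 0.13 in MHC-IIhi and 0.73 ± 0.13 in MHC-IIlo (unadjusted p = 2.01e-05, adjusted p = 0.274 for the difference), and its copies may share reads. Socs2 had -0.52 ± 0.22 and 0.88 ± 0.24 (adjusted p = 0.63). Pgm2l1, which passed in MHC-IIhi, had -0.14 ± 0.12 in MHC-IIlo (adjusted p = 0.63). Il1b, the interleukin, had 0.62 ± 0.60 in MHC-IIhi against 2.79 ± 0.67 in MHC-IIlo, and the difference did not pass (adjusted p = 0.661). For Il22 no difference could be estimated, since both MHC-IIlo groups were at 0.

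**Figure D4:**
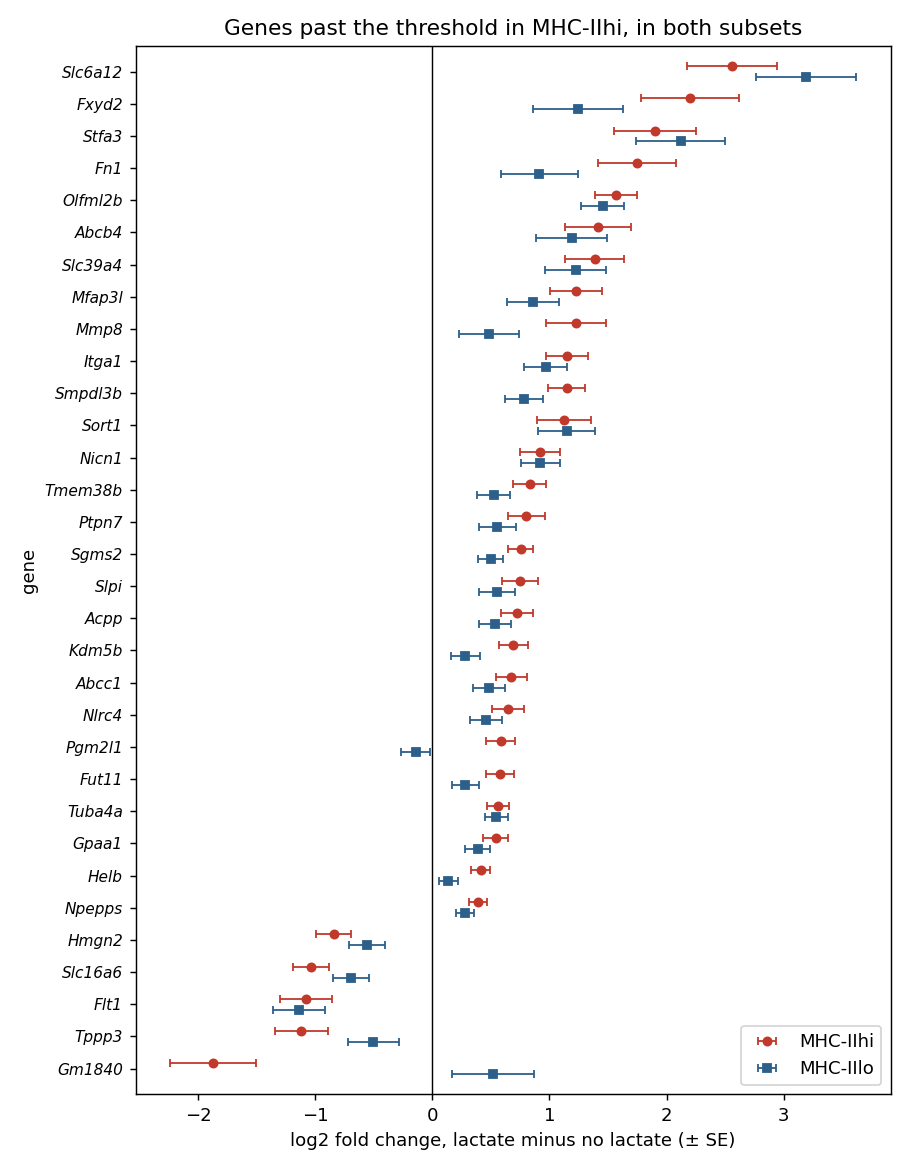
Fitted log2 fold change ± SE (lactate minus no lactate) of genes that passed in MHC-IIhi cells, in MHC-IIhi (red circles) and MHC-IIlo (blue squares) cultures, with Il22 left out because it had no count in MHC-IIlo. Points of the subsets plotted lie on the same side of 0 except for Pgm2l1 and Gm1840.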

How the data were processed

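RNA of sorted and cultured macrophages was sequenced in bulk. Tools named per the submitters' processing notes are Trimmomatic, STAR and featureCounts, on build GRCm38, with versions, annotation release and strand setting not given in the sources used here. The authors deposited raw counts of 46603 genes and FPKM of 13778 genes, whose filter is not stated. Gene lengths in bases, deposited beside both, were not used. Header numbers differ from the labels', so a cultured column was placed in its group only, and p-values measure the spread between libraries, which may share mice.

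Genes kept by filterByExpr over the 20 cultured libraries were TMM-scaled, and the test was the 2-sided edgeR 4.0.16 quasi-likelihood F test on group means (R 4.3.3), with Benjamini-Hochberg adjustment over 13593 genes and a threshold of 0.05. Within a group no 2 libraries were alike, with chi-square per degree of freedom of 19.3 to 128. The test was checked on simulated counts. Named genes were those past the threshold, the 2 smallest p of each list with at least 4 tested members, a panel of 16 genes, the 3 smallest p of the difference, and 6 rises and 6 falls short of the threshold with p under 0.01, average log2 CPM of at least 5 and groups apart. The members, 34 pathway lists and 10 marker lists were chosen with earlier results of these data known. Alternatives used DESeq2 1.42.0, limma 3.58.1, other scaling and filters, log2(FPKM + 1) and log2(FPKM + 0.1), other sets of libraries, a block and each library left out. Raw reads were not used here, and values of 1 gene among those that passed are not reported here.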

Additional observations from a re-analysis of the deposited data

Results flagged for a closer look

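For the named genes, 266 sets of 5 libraries were checked, and in 14 of them 1 library lay far from the other 4 by Dixon's criterion. Chance alone meets it in about 1 of 20 sets, so this number is close to the chance share. Lactate library 1 was the one in 7 of them. It was at 0.0731 CPM (2 counts) for Il22, where the other 4 were at 0 and any count meets the criterion, at 75.1 CPM for Ptpn7 (others 52.1 to 57.0), at 3.11 CPM for Ido1 (0.647 to 0.843), at 18.7 CPM for F13a1 (56.1 to 68.7), at 0.841 CPM for Kmo (0.185 to 0.373), at 4.42 CPM for Slc16a13 (1.69 to 2.29) and at 41.2 CPM for Slc16a1 (71.8 to 80.2). Lactate library 6 was at 726 CPM for Il1b (299 to 374), at 1.48 CPM for H2-Ob (0.693 to 0.804) and at 2.27 CPM for H2-Oa (1.099 to 1.39). Lactate library 5 was at 6.43 CPM for Hspa1b (8.22 to 8.85). Without lactate, library 3 was at 2.89 CPM for Il22 (1.06 to 1.42), library 6 at 29.5 CPM for Tppp3 (17.3 to 19.04) and library 5 at 143 CPM for Scd2 (75.7 to 94.8). Of the genes that passed, Il22, Ptpn7 and Tppp3 were flagged in this way. Il22 passed with each library left out, and Ptpn7 and Tppp3 lost their calls in 9 and 8 of 10 such fits.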

How the results depend on the processing

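The count of 34 genes in MHC-IIhi became 128 with DESeq2 (which included all 34), 53 with all 30 libraries in the fit, 54 without lactate MHC-IIlo library 5 in the fit, 16 with only the 10 MHC-IIhi libraries, and 59 on log2(FPKM + 1) without a filter (40 higher and 19 lower), and 8 to 27 with 1 of its libraries left out. It stayed within 1.5 times under RLE scaling (30), no filter (26), limma voom (50) and filtered FPKM (42 with either pseudocount). The count of 202 in MHC-IIlo became 702 with DESeq2, 1502 with limma voom, 531 with all 30 libraries and 53 to 758 with 1 library left out, the highest without lactate library 1. The difference of the effects gave 3 genes with DESeq2, 2 with limma voom, 1 with all 30 libraries and 0 to 8 with 1 library left out, 8 without lactate MHC-IIlo library 1 and 1 without no-lactate MHC-IIhi library 7. The cause of these moves was not tested, and fewer libraries also give fewer degrees of freedom. With a replicate block on the header numbers the counts were 81 (30 of the 34 among them), 1111 and 2, and Il22 had an adjusted p of 0.054. Same-number libraries of the MHC-IIhi groups had correlations of deviations from -0.32 to 0.44 over 4 numbers. Of the 4 no-lactate libraries with a same-number partner, 2 correlated best with it. The last numbers in the headers group libraries alike: 15 to 18 carry number 3, 19 to 22 number 4, 23 to 26 number 5 and 27 to 30 number 6. Each run holds all cultured groups. In 11 to 14, no-lactate MHC-IIhi library 7 stands beside libraries numbered 1. That library is alone in its block, so it adds nothing to the blocked comparison. With so few MHC-IIhi pairs, and the meaning of either number not stated, whether the numbers pair the samples cannot be told. Total count differed by -5984486 to -2691958 and genes with a count by -684 to -352 with 1 library left out, with exact permutation p = 0.0159 for both without lactate library 1 and p = 0.0476 for the latter without no-lactate library 4. Of the 99 named genes that did not pass, 15 passed in some alternative, and no call reversed. Abcb4 and Flt1, under 6 CPM, shrank to 0.20 and -0.13 on log2(FPKM + 1), where the pseudocount sets the size. Levels under about 1 CPM rest on few reads.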
